A study of Homo sapiens with 24 samples.

Results

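The enzymes that write and erase methylation on lysine 27 of histone H3 (H3K27) were followed through GSK-J4 treatment of 4 human neuroblastoma cell lines. The 10 genes were chosen by name: the H3K27 demethylases KDM6A and KDM6B, and 8 genes of Polycomb repressive complex 2 (PRC2), namely EZH1, EZH2, EED, SUZ12, JARID2, PHF19, MTF2 and AEBP2. All 10 were listed once in each of the authors' deposited tables, which hold between 29328 and 33561 genes per line and 39772 in all. GSK-J4 enters cells and inhibits both demethylases. Each line was sampled untreated ("No Rx") and after 72 hours in 1 µM GSK-J4, with 3 libraries of polyadenylated RNA per group and 24 in all. LAN5 and IMR5 (MYCN amplified) and SK-N-FI (MYCN wildtype) are labelled sensitive to the compound, and SK-N-BE(2) (MYCN amplified) is labelled resistant. Resistance and MYCN wildtype status are each represented by 1 line, so either one cannot be told apart from the other properties of that line.

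PRC2 places methyl groups on H3K27 and so keeps developmental genes silent. EZH2, or its paralog EZH1, is the catalytic subunit, EED binds the finished mark and stimulates the enzyme, and SUZ12 is the scaffold. Accessory proteins bring the complex to chromatin in alternative forms: the Polycomb-like proteins PHF1, MTF2 and PHF19 in one, and JARID2 and AEBP2 in the other. KDM6A, also called UTX, and KDM6B, also called JMJD3, remove the mark, and KDM6A does so as part of the complex built on the methyltransferases KMT2C and KMT2D. In neuroblastoma, a tumour of sympathoadrenal origin, EZH2 is known to hold differentiation genes silent.

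The promoter windows of the members are shown because EZH2 is a known target of E2F, the factors that drive S-phase genes. RefSeq windows on GRCh38.p14 run from 250 bases before to 50 bases after a start site, and 14 windows matched the 10 members. Each was searched on both strands for E2F words (TTTCCCGC, TTTGGCGC, TTTCGCGC or TTTGCCGC). Other motifs were searched in the same way. The cell-cycle element known as CHR was spelled TTTGAA. The E-box bound by MYC proteins was spelled CACGTG. The cyclic AMP response element (CRE) was spelled TGACGTCA. The site of AP-1 factors was spelled TGANTCA, with N for any base. The box that NF-Y binds was spelled CCAAT. An E2F word stood in 6 of the 14 windows, each of a different gene, against 3.31% of all 35116 windows and 5.43% of windows of genes with a mean normalized count of at least 100 in every table. The 6 stretches follow, 5′ to 3′ on the gene's strand with the E2F word in capitals.
EZH2: cgatggcgattgggctgccgcgTTTGGCGC
PHF19: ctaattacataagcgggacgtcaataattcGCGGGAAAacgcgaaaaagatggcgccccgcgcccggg
SUZ12: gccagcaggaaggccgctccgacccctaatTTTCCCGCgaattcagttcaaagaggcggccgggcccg
MTF2: tcccagaatgcaccggcagtccGCGGGAAA
AEBP2: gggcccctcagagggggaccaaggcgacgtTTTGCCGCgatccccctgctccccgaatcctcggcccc
EZH1: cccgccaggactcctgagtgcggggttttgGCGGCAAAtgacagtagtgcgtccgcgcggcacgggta
The word began 1 base after the start site in EZH2, on chr7:148884283-148884312 (minus strand), and 152 bases before it in PHF19, on chr9:120877303-120877370 (minus strand). In SUZ12, on chr17:31936788-31936855 (plus strand), it began 189 bases before the start site. In AEBP2, on chr12:19440419-19440486 (plus strand), it began 150 bases before the start site. In EZH1 the stretch is chr17:42745118-42745185 (minus strand) and in MTF2 chr1:93079266-93079295 (plus strand). Genes with an E2F word went in different directions: EZH2 and PHF19 fell in all 3 sensitive lines, AEBP2 rose in all 3, and EZH1 rose in IMR5.

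JARID2 and KDM6A are shown for other motifs, again in capitals: a pair of CREs in a JARID2 window (chr6:15248714-15248830, plus strand), and an AP-1 site followed by an E-box in the KDM6A window (chrX:44873048-44873128, plus strand).
JARID2: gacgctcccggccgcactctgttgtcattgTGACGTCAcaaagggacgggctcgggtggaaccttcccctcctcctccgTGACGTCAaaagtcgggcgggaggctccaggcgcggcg
KDM6A: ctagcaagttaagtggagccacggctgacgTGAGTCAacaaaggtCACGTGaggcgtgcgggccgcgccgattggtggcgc
A CRE was found in 1.85% of all windows, an AP-1 site in 7.71% and an E-box in 7.26%. Neither KDM6B window held any of the motifs. These matches describe letters in a window and were not tested as binding sites.

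The tables give, for each gene, the mean normalized count over a line's treated and untreated libraries, and a log2 fold change with its standard error. They hold no value of a single library, so no spread over replicates can be shown. Fold changes are read as GSK-J4 over untreated, a direction the tables do not state. It was read from BBC3, which the study is known to report as induced, in the sensitive lines, and in SK-N-BE(2) from MT2A and SLC30A1, whose sign is the same in all 4 tables. The SK-N-FI table was assigned by a near match of its short name and by elimination. The authors' fold changes are shrunken toward 0, most strongly in SK-N-BE(2), so values called prior-removed, with the shrinkage taken out as described for the processing, are used for comparison between lines. Values given as log2 below are prior-removed log2 fold changes ± standard error unless said to be deposited. A gene is called higher (rose) or lower (fell) at an adjusted p under 0.05 by the authors' deposited table, from a Wald test with Benjamini-Hochberg adjustment. The labels do not say whether replicates were grown separately, and p-values therefore reflect the spread between these libraries only. In bulk RNA, fewer cells expressing a gene and less RNA per cell cannot be told apart.

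Markers of the labelled cell type were found in every line, at uneven levels. The 8 adrenergic neuroblastoma markers summed to between 1103 (SK-N-FI) and 1951 (LAN5) normalized counts, scaled to a total of 1000000 for each table. TH was not listed in IMR5 and SK-N-FI. The lowest listed marker was DBH at 3.88 in SK-N-BE(2) and 7.40 in IMR5, and GATA3 at 14.7 in SK-N-FI. The 5 immune and endothelial markers summed to at most 2.90 such scaled counts and the 4 Schwann and glial markers to at most 12.5. The 6 fibroblast or mesenchymal markers, which such lines can express themselves, ranged from 126 in LAN5 to 1689 in SK-N-FI. In SK-N-FI that sum exceeded the adrenergic sum, and FN1 alone gave 1445 of it. MYCN had mean normalized counts of 24408 for LAN5, 11397 in IMR5, 38908 for SK-N-BE(2) and 116 for SK-N-FI by the authors' deposited tables. The adrenergic markers also moved with treatment: 8 of 8 fell for LAN5, 4 of 7 fell and 2 rose in IMR5, 5 of 7 fell and 1 rose for SK-N-FI, and 5 of 8 fell for SK-N-BE(2). Their part in the results below was not tested.

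GSK-J4 moved most of the members in the sensitive lines and none past the threshold in the resistant line. In LAN5 3 members rose and 5 fell, where 22.5% of all tested genes rose and 19.2% fell. In IMR5 4 rose and 3 fell (background 22.6% and 21.6%), and in SK-N-FI 3 rose and 3 fell (16.8% and 14.8%). In SK-N-BE(2), where 1.62% of tested genes rose and 0.858% fell, 0 of 10 were called, with 1 at an unadjusted p under 0.05 (EZH2) by the DESeq2 Wald test of the authors' deposited table. Over both directions the shares of tested genes called, from LAN5 and IMR5 to SK-N-FI and SK-N-BE(2), were 41.7%, 44.1%, 31.6% and 2.48%. The lowest mean normalized count of a member was 493 (KDM6A in LAN5 by the authors' deposited table), and among genes whose mean reached 100 the shares called were 67.0%, 69.6%, 49.1% and 2.87%. The members' 8, 7, 6 and 0 calls of 10 were thus near the background for genes of their strength. KDM6A, KDM6B and AEBP2 were called higher in all 3 sensitive lines, and EZH2 and PHF19 lower. Over all 18599 genes tested in these lines, 5.01% were called higher and 5.83% lower in all 3. These shares include weakly expressed genes, which are called less often. The shares among genes of the members' strength are not given here, so no excess is read from the members' counts. The median log2 of the 10 members was -0.09 for LAN5, 0.04 in IMR5, 0.01 for SK-N-FI, and 0.00 in the resistant line by the authors' deposited tables, against 0.09, 0.02, 0.01 and 0.00 over all tested genes. Among genes whose mean reached 100 the prior-removed medians were -0.09, -0.01, 0.00 and 0.00 in the same order. The members' median in LAN5 was thus near that of genes of their strength.

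**Figure D1:**
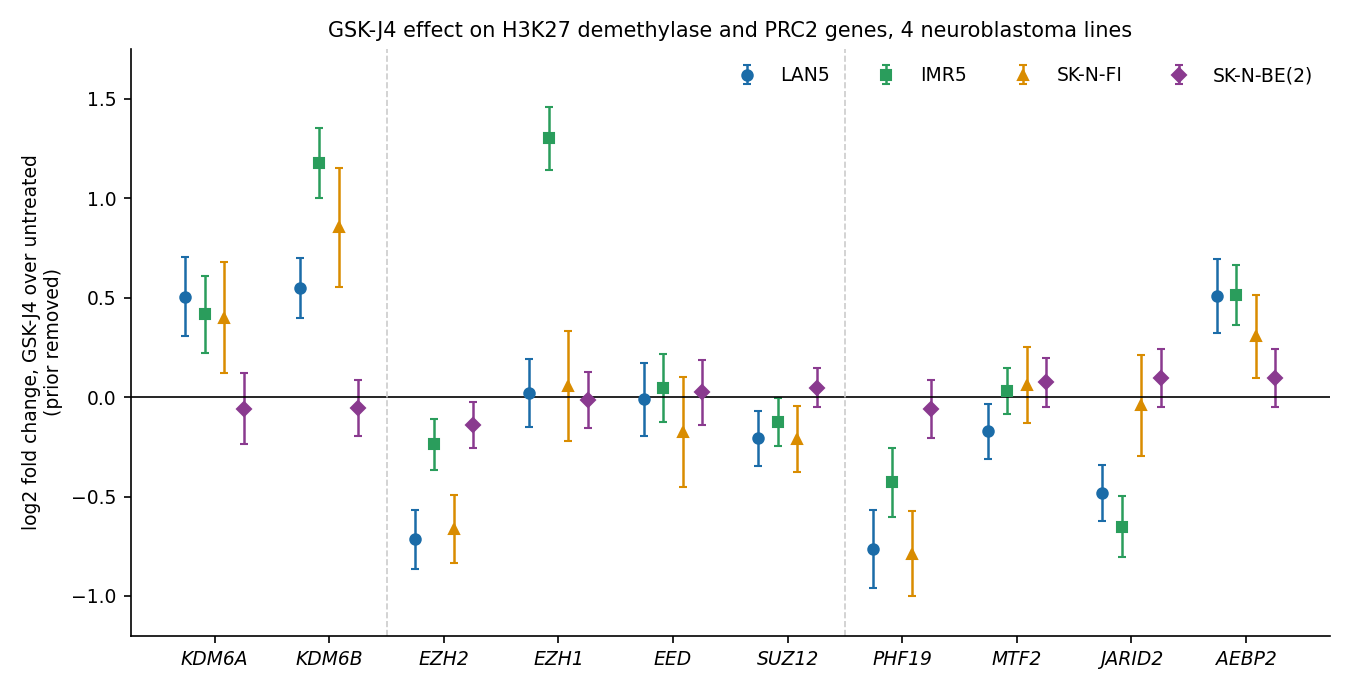
Prior-removed log2 fold change of each member (vertical axis, GSK-J4 over untreated) in LAN5, IMR5, SK-N-FI and SK-N-BE(2); points are estimates and bars 95% intervals, and dashed lines separate demethylases, core PRC2 genes and accessory genes. In the 3 sensitive lines both demethylase genes and AEBP2 lie above 0 and EZH2 and PHF19 below it, EZH1 is high in IMR5 alone of the 4, and in SK-N-BE(2) the estimates lie between -0.14 and 0.10.

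RNA of both targets of the compound was more abundant in treated sensitive cells. The libraries hold RNA only, so levels of the proteins are not known from them. KDM6B (ENSG00000132510, chromosome 17, 7839904 to 7854796) had mean normalized counts of 1288 for LAN5, 2206 in IMR5, 841 for SK-N-FI, and 939 in the resistant line by the authors' deposited tables. As scaled counts, and split with the fold change into an untreated and a treated level, it went from 67.6 to 99.0 for LAN5, from 69.6 to 157 in IMR5 and from 37.2 to 67.3 for SK-N-FI, and from 59.6 to 57.5 for SK-N-BE(2). These are folds of 1.46 (95% interval 1.32 to 1.63), 2.26 (2.00 to 2.56) and 1.81 (1.47 to 2.22) in the sensitive lines and 0.96 (0.87 to 1.06) in SK-N-BE(2). The rise was called in each sensitive line, with adjusted p-values of 1.11e-11, 6.61e-37 and 2.77e-07 by the authors' deposited tables. KDM6B in IMR5 and SK-N-FI stood above 94.8% and 94.1% of genes whose mean reached 100, and in LAN5 above 84.7%.

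KDM6A (ENSG00000147050, chromosome X, 44873177 to 45112602) moved less and by much the same amount in the sensitive lines. Its level went from 26.4 to 37.5 scaled counts for LAN5, from 41.3 to 55.1 in IMR5 and from 30.7 to 40.5 for SK-N-FI, and from 32.5 to 31.2 for SK-N-BE(2). The folds were 1.42 (95% interval 1.24 to 1.63), 1.34 (1.17 to 1.53) and 1.32 (1.09 to 1.60), with adjusted p-values of 2.51e-06, 8.67e-05 and 0.0194 by the authors' deposited tables. In SK-N-BE(2) the fold was 0.96 (0.85 to 1.09). KDM6A has a Y-linked paralog, UTY, with which reads could be shared.

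RNA of both demethylases rose more in the sensitive lines than in SK-N-BE(2). A Wald test (two-sided) of prior-removed values, with Benjamini-Hochberg adjustment over 8982 genes, gave a mean sensitive minus resistant difference of 0.91 ± 0.0963 for KDM6B (adjusted p = 4.32e-20) and 0.50 ± 0.113 for KDM6A (3.43e-05). Of all genes in that test 59.1% were called, so a difference from the resistant line was the common case. Each sensitive line alone differed from SK-N-BE(2) in both genes: for KDM6B by 0.60 for LAN5, 1.23 in IMR5 and 0.91 for SK-N-FI, and for KDM6A by 0.56, 0.47 and 0.46. Among sensitive lines KDM6B rose more in IMR5 than in LAN5 (LAN5 minus IMR5 -0.63 ± 0.119, Wald adjusted p = 6.44e-07), while KDM6A did not differ past the threshold there (0.09, 95% interval -0.19 to 0.37). The MYCN-amplified sensitive lines and SK-N-FI did not differ past the threshold in either gene, with intervals of -0.31 to 0.33 for KDM6B and -0.25 to 0.37 for KDM6A.

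EZH2, the main H3K27 methyltransferase of dividing cells, went the other way. EZH2 (ENSG00000106462, chromosome 7, 148807383 to 148884321) had mean normalized counts of 1179 for LAN5, 3220 in IMR5, 1918 for SK-N-FI, and 1279 in the resistant line by the authors' deposited tables. Its level went from 94.7 to 57.7 scaled counts for LAN5, from 179 to 152 in IMR5, from 146 to 92.3 for SK-N-FI, and from 83.6 to 75.8 in the resistant line. This was a fall of 39.0% for LAN5, 15.2% in IMR5 and 36.9% for SK-N-FI (adjusted p = 5.66e-20, 0.000788 and 1.14e-12 by the authors' deposited tables). The smaller value in IMR5 differed from that in LAN5 (LAN5 minus IMR5 -0.48 ± 0.0997, Wald adjusted p = 6.61e-06). In SK-N-BE(2) the log2 value was -0.14 ± 0.0592 (unadjusted p = 0.0172, adjusted p = 0.279 by the authors' deposited table). EZH2 in IMR5 did not differ from SK-N-BE(2) past the threshold (-0.10, 95% interval -0.27 to 0.08), whereas LAN5 and SK-N-FI did (-0.57 ± 0.0961 and -0.52 ± 0.106, Wald adjusted p = 1.22e-08 and 6.38e-06). With the other solution for the shrinkage of the SK-N-BE(2) table, described further below, these differences turned to 0.39 and 0.44 and were not called (adjusted p = 0.633 and 0.605). Thus IMR5, labelled sensitive, had the weakest fall of EZH2 among the sensitive lines and still the highest treated level of the 4 lines.

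EZH1, the paralog that predominates in non-dividing cells, rose in IMR5 and in no other line. EZH1 (ENSG00000108799, chromosome 17, 42700275 to 42745049) went from 48.6 to 120 scaled counts in IMR5, a fold of 2.46 (95% interval 2.21 to 2.75, adjusted p = 5.42e-55 by the authors' deposited table). In LAN5 it went from 49.6 to 50.3, in SK-N-FI from 47.8 to 49.7 and in SK-N-BE(2) from 54.1 to 53.5, and none of these was called. Untreated levels of EZH1 were within 1.13-fold of each other over the 4 lines. LAN5 and IMR5 differed by -1.28 ± 0.119 (Wald adjusted p = 1.81e-25), in a comparison where 61.0% of genes were called. The called sensitive minus resistant difference of 0.48 ± 0.0944 for EZH1 rests on IMR5: without that line it was 0.05 (Wald adjusted p = 0.695).

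Per kb of exon, so that genes of different length can be set side by side, the untreated level of EZH2 was 2.89 times that of EZH1 for LAN5, 5.59 times in IMR5, 4.64 times for SK-N-FI, and 2.34 times in the resistant line. After GSK-J4 the ratio was 1.74, 1.92, 2.82 and 2.15. The ratio of the catalytic subunits was lower after treatment in LAN5, IMR5 and SK-N-FI, by a log2 of -0.73 ± 0.115, -1.54 ± 0.104 and -0.72 ± 0.166. In LAN5 and SK-N-FI this came with less EZH2 and little change of EZH1, and in IMR5 mostly with more EZH1. In SK-N-BE(2) the change of the ratio was -0.13 ± 0.0929, within 2 errors of 0. These changes are given without a test. The ratio of KDM6B to KDM6A per kb changed from 2.27 to 2.34 for LAN5, from 1.49 to 2.52 in IMR5, from 1.07 to 1.47 for SK-N-FI, and from 1.62 to 1.63 in the resistant line.

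**Figure D2:**
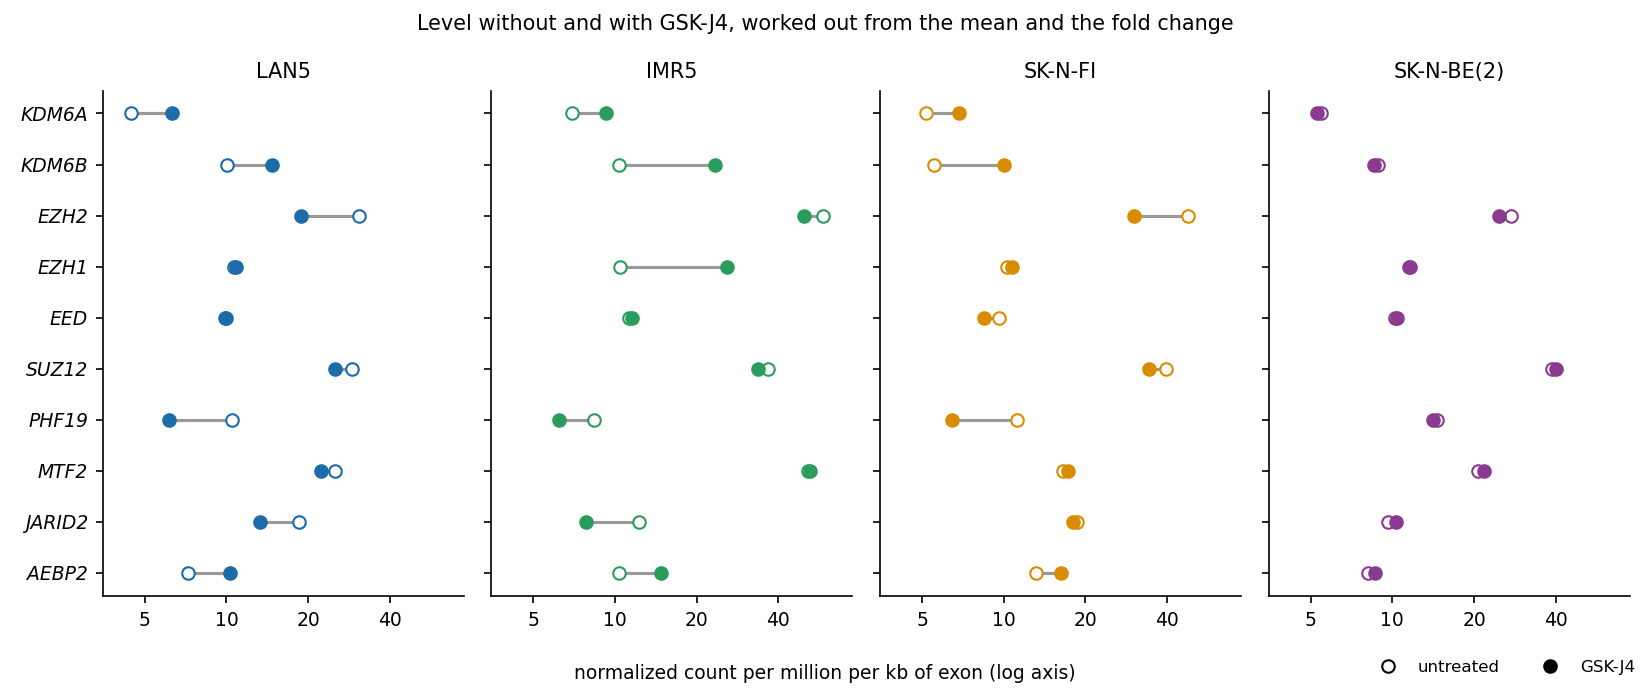
Level of each member (rows) in counts scaled to a table total of 1000000, per kb of exon, on a log axis, 1 panel per line; open circles are untreated and filled circles GSK-J4-treated levels, both worked out from the authors' mean and the prior-removed fold change. EZH1 in IMR5 moves from 10.5 to 25.8 while it stays between 10.3 and 11.7 in the other lines, and in SK-N-BE(2) the pairs of circles nearly coincide.

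The other core subunits changed little. SUZ12 (ENSG00000178691, chromosome 17, 31937018 to 32001045) had log2 values of -0.21 ± 0.0700 for LAN5, -0.13 ± 0.0610 in IMR5, -0.21 ± 0.0851 for SK-N-FI, and 0.05 ± 0.0495 in the resistant line. It was called lower in LAN5 and SK-N-FI (adjusted p = 0.00911 and 0.0416 by the authors' deposited tables) and not in IMR5 (0.0838). The LAN5 call was lost when fold changes were centred on the median gene (adjusted p = 0.168), and the SK-N-FI call when p-values were adjusted over all genes (0.0603). The sensitive lines together differed from SK-N-BE(2) by -0.23 ± 0.0649 (Wald adjusted p = 0.00107). SUZ12 has a partial copy, the pseudogene SUZ12P1 on the same chromosome, with which reads could be shared. EED (ENSG00000074266, chromosome 11, 86244544 to 86278813) was not called in any line, with log2 values between -0.17 ± 0.142 in SK-N-FI and 0.05 ± 0.0868 in IMR5. Its sensitive minus resistant difference had a 95% interval of -0.28 to 0.13.

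The Polycomb-like genes did not move as a set. PHF19 (ENSG00000119403, chromosome 9, 120855652 to 120894896) fell by 41.1% for LAN5, 25.7% in IMR5 and 42.0% for SK-N-FI (adjusted p = 1.96e-13, 6.54e-06 and 1.31e-11 by the authors' deposited tables). Its level went from 49.7 to 29.3 scaled counts for LAN5, from 39.7 to 29.5 in IMR5 and from 53.1 to 30.8 for SK-N-FI, so that the 3 sensitive lines had similar treated levels. In SK-N-BE(2) it went from 69.8 to 67.0, and the sensitive minus resistant difference was -0.60 ± 0.0943 (Wald adjusted p = 1.20e-09). MTF2 (ENSG00000143033, chromosome 1, 93079235 to 93139081) was called lower in LAN5 only, at -0.17 ± 0.0706 (adjusted p = 0.0387 by the authors' deposited table). That call was lost after centring (adjusted p = 0.375) and with p-values adjusted over all genes (0.0504). PHF1, the third Polycomb-like gene and a member of the list of partners given further below, rose in all 3 sensitive lines by a deposited log2 of 1.10 ± 0.100 for LAN5, 1.05 ± 0.0924 in IMR5 and 1.31 ± 0.125 for SK-N-FI by the authors' deposited tables. In SK-N-BE(2) PHF1 had a deposited value of 0.01 ± 0.0773 by the authors' deposited table.

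JARID2 and AEBP2, the accessory subunits of the other form of the complex, moved in opposite directions. JARID2 (ENSG00000008083, chromosome 6, 15246296 to 15522040) fell in both MYCN-amplified sensitive lines, from 109 to 78.3 scaled counts in LAN5 and from 72.1 to 45.8 in IMR5 (adjusted p = 7.33e-11 and 6.27e-16 by the authors' deposited tables). In SK-N-FI it went from 109 to 106 and in SK-N-BE(2) from 56.5 to 60.5, and neither was called. The difference between the MYCN-amplified sensitive lines and SK-N-FI was -0.53 ± 0.139 (Wald adjusted p = 0.000663). That of EZH1, which rests on IMR5, was 0.60 ± 0.153 (0.000341). These were the 2 members of 10 called in that comparison, where 47.2% of all genes were called. JARID2 shares its locus with the antisense gene JARID2-AS1, and whether strand was used in counting is not given in the sources used here.

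AEBP2 (ENSG00000139154, chromosome 12, 19404045 to 19720801) rose from 42.4 to 60.5 scaled counts for LAN5, from 60.8 to 86.7 in IMR5 and from 77.1 to 95.3 for SK-N-FI. The folds were 1.42 (95% interval 1.25 to 1.62), 1.43 (1.28 to 1.58) and 1.24 (1.07 to 1.43), with adjusted p-values of 4.10e-07, 2.01e-10 and 0.0166 by the authors' deposited tables. In SK-N-BE(2) the fold was 1.07 (0.97 to 1.18), and AEBP2 in SK-N-FI did not differ from it past the threshold (difference 0.21, 95% interval -0.05 to 0.46). LAN5 and IMR5 gave nearly the same value for AEBP2, with a difference of 0.00 (95% interval -0.24 to 0.24).

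**Figure D3:**
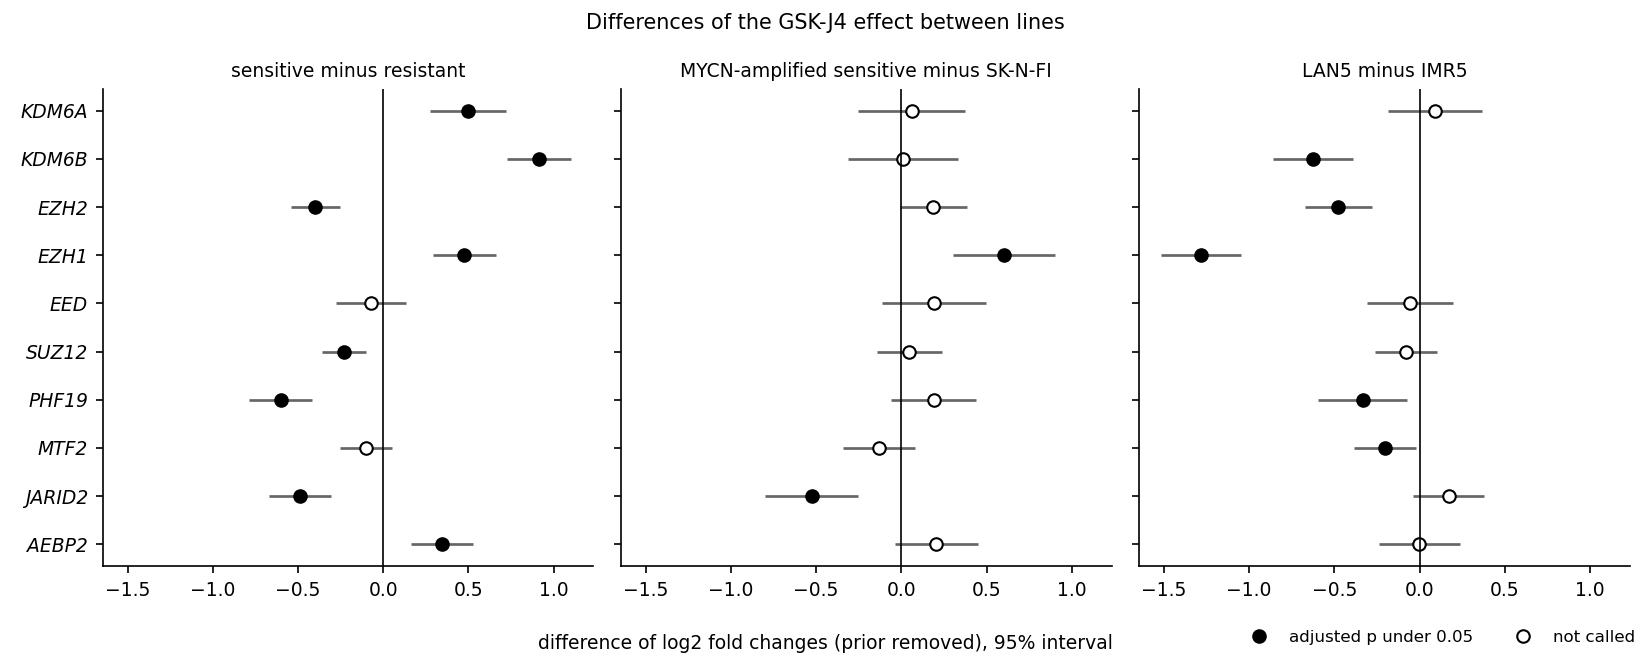
Difference of prior-removed log2 fold changes between lines for each member, with 95% intervals, in 3 comparisons; filled circles passed an adjusted p under 0.05 (Wald test over 8982 genes). Against the resistant line 8 of 10 members differ, 4 upward and 4 downward, where 59.1% of all genes were called. JARID2 and EZH1 pass between the MYCN-amplified sensitive lines and SK-N-FI, EZH1 through IMR5 and not LAN5. EZH1 has the largest gap between LAN5 and IMR5.

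Against SK-N-BE(2), LAN5 had 8 of 10 members called, IMR5 had 7 and SK-N-FI had 5, where 60.7%, 63.0% and 44.1% of all genes were called. Between LAN5 and IMR5 5 of 10 were called, where 61.0% of all genes were called. All 5 were lower in LAN5 than in IMR5: EZH1, KDM6B, EZH2, PHF19 (-0.33, Wald adjusted p = 0.0225) and MTF2 (-0.20, 0.0484). The calls of PHF19 and MTF2 were lost after centring (Wald adjusted p = 0.0599 and 0.162). The comparisons with SK-N-BE(2) depend on how the shrinkage of that table is undone. The other solution of the equations has errors of 0.301 to 0.553 for the members. With it the sensitive minus resistant difference was 0.56 for EZH2 and -0.02 for AEBP2, and 1 of 10 members was called. Its error was smallest for the member of lowest mean normalized count, KDM6A (0.301 at 511), and largest for that of highest, SUZ12 (0.553 at 2842). In the solution used here the order was the reverse, with 0.0909 for KDM6A and 0.0495 for SUZ12.

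Levels of the members differed between lines. Those ranked below are means over treated and untreated libraries, so they include the effect of treatment, except where untreated cells are named. The tables were normalized separately, so levels are set side by side as scaled counts and were not tested. An error of each level was implied from the standard error of its fold change, and neighbours in the order are called apart when they differ by more than 2 combined errors. By the mean over treated and untreated libraries, 17 of 30 neighbouring pairs were apart, and by untreated levels 16 of 30. MTF2 had the widest range: 214 scaled counts in IMR5, 97.9 in LAN5, 87.6 in SK-N-BE(2) and 69.8 in SK-N-FI, all neighbours apart. EZH2 was highest in IMR5 at 166, followed by SK-N-FI at 119.2, with SK-N-BE(2) at 79.7 and LAN5 at 76.2, the last pair not apart. In untreated cells that pair was apart, with EZH2 higher in LAN5 (94.7) than in SK-N-BE(2) (83.6).

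The demethylases were ordered differently. KDM6B was at 113 in IMR5, 83.3 in LAN5, 58.6 in SK-N-BE(2) and 52.3 in SK-N-FI, the last pair not apart. KDM6A was at 48.2 in IMR5, 35.6 in SK-N-FI, 31.9 in LAN5 and 31.9 in SK-N-BE(2), with only IMR5 apart from its neighbour. In untreated cells the KDM6B levels of IMR5 and LAN5 were not apart, and KDM6A was lowest in LAN5, not apart from SK-N-FI.

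Among the remaining PRC2 genes, SUZ12 was lowest in LAN5 (122), apart from its neighbour IMR5, and between 157 and 177 in the other 3 lines. Within those 3, neighbours in the order were not apart, and the highest was not compared with the lowest. PHF19 was highest in SK-N-BE(2) at 68.4, against 34.6 to 41.9 in the sensitive lines. JARID2 was at 108 in SK-N-FI and 93.8 in LAN5, with IMR5 at 59.0 and SK-N-BE(2) at 58.5, the last pair not apart. In untreated cells that pair was apart, with JARID2 at 72.1 in IMR5 and 56.5 in SK-N-BE(2). AEBP2 was at 86.2 in SK-N-FI, 73.8 in IMR5, 51.4 in LAN5 and 49.2 in SK-N-BE(2), the last pair not apart. EED ranged only from 32.8 in SK-N-FI to 41.4 in IMR5. EZH1 was at 84.2 in IMR5 and between 48.7 and 53.8 in the other lines, where neighbours were not apart. Its range over untreated levels is the 1.13-fold given above.

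EZH2 and its partners were set beside 16 proliferation genes, since EZH2 is a known cell-cycle gene. Of these, 16 fell in LAN5 and 14 in each of IMR5 and SK-N-FI, and 0 of 16 were called in SK-N-BE(2). Over all tested genes 19.2%, 21.6%, 14.8% and 0.858% fell in the same order. The median deposited log2 was -1.19, -1.16, -1.07 and 0.02 by the authors' deposited tables. MKI67 fell, with a deposited log2 of -3.39 ± 0.0825 for LAN5, -1.81 ± 0.0677 in IMR5 and -2.21 ± 0.215 for SK-N-FI by the authors' deposited tables. Near-equal medians hid differences between genes. TOP2A had a deposited log2 of -2.30 in LAN5 and -0.10 in IMR5, not called there, and CDK1 had -1.18 and -0.12, the latter not called, by the authors' deposited tables. The replication gene MCM4 went the other way, with a deposited log2 of -0.64 in LAN5 and -1.44 in IMR5 by the authors' deposited tables. The E2F activators of the list ran in opposite orders. E2F1 had a deposited log2 of -1.27 ± 0.0806 for LAN5, -0.85 ± 0.0875 in IMR5 and -0.23 ± 0.138 for SK-N-FI, the last not called, by the authors' deposited tables. E2F2 fell in all 3, with a deposited log2 of -0.60 ± 0.135 for LAN5, -1.24 ± 0.133 in IMR5 and -1.55 ± 0.143 for SK-N-FI by the authors' deposited tables. An E2F word stood in promoter windows of 8 of 13 proliferation genes with a window. The part of proliferation in the falls of EZH2 and PHF19 was not tested.

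**Figure D4:**
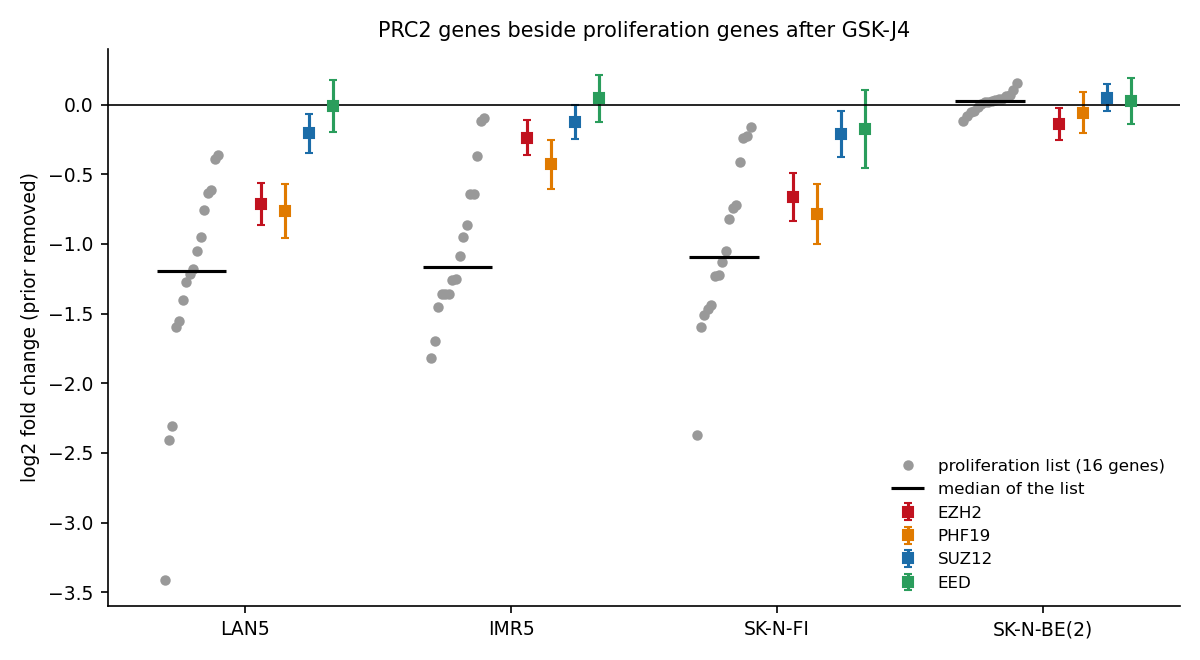
Prior-removed log2 fold changes of 16 proliferation genes (grey points, bar at their median) and of EZH2, PHF19, SUZ12 and EED (squares with 95% intervals) in each line. In the sensitive lines EZH2 and PHF19 lie below 0 but above the median of the proliferation list, EED has an interval that includes 0 in every line, and in SK-N-BE(2) the proliferation genes lie near 0.

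The 5 genes nearest to EZH2 by the distance between their 4 prior-removed values, over 8982 genes, were PKMYT1, ERCC4, COPS6, ZFP30 and HNRNPH3. PKMYT1, a kinase that restrains mitotic entry, was nearest at a distance of 0.11, with -0.71 for LAN5, -0.34 in IMR5, -0.64 for SK-N-FI, and -0.11 in the resistant line. Nearest to KDM6B were CSGALNACT2, DRAM2, ANKZF1, PKD1P6 and RSRP1, the first at a distance of 0.12. These are likenesses over 4 lines and are given as a description.

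Other genes of the H3K27 and Polycomb systems were read from lists. Of 7 further PRC2 partners and accessory genes, 2 rose and 4 fell in LAN5 (7 tested), 3 rose and 3 fell in IMR5 (6 tested), and 1 rose and 2 fell in SK-N-FI (7 tested). RBBP4 and RBBP7, the histone-binding subunits of PRC2 and of other complexes, fell in all 3 sensitive lines, RBBP4 with a deposited log2 of -0.54 ± 0.0616 for LAN5, -0.42 ± 0.0570 in IMR5 and -0.52 ± 0.0868 for SK-N-FI by the authors' deposited tables. PHF1 was the gene of this list that rose in all 3. EPOP, a PRC2 cofactor, fell, with a deposited log2 of -1.25 ± 0.134 in LAN5 and -0.55 ± 0.165 in IMR5 by the authors' deposited tables. EZHIP, an inhibitor of PRC2, was called higher in LAN5 at a mean normalized count of 4.83 by the authors' deposited table, too weak for its size to be read.

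Of 9 other genes of the complex that holds KDM6A, 0 rose and 4 fell in LAN5, 1 rose and 3 fell in IMR5, and 1 rose and 1 fell in SK-N-FI. PAXIP1, a subunit of that complex, fell in all 3, with a deposited log2 of -1.05 ± 0.0995, -0.63 ± 0.0864 and -0.56 ± 0.159 by the authors' deposited tables. The genes that rose were KMT2C in IMR5 (deposited 0.40 by the authors' deposited table) and DPY30 in SK-N-FI (deposited 0.55 by the authors' deposited table). EP300, which acetylates the same lysine, rose in LAN5 (deposited 0.24 ± 0.0752) and fell in IMR5 (deposited -0.53 ± 0.0653) by the authors' deposited tables. CREBBP, its paralog, fell in LAN5 and IMR5, and neither was called in SK-N-FI.

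Polycomb repressive complex 1 reads the mark that PRC2 leaves. Of 19 of its genes, 5 rose and 5 fell in LAN5, 7 rose and 7 fell in IMR5, and 7 rose and 1 fell in SK-N-FI. Among all genes whose mean reached 100, 67.0%, 69.6% and 49.1% were called in these lines. CBX2, a chromobox reader of the mark, fell in all 3 sensitive lines, with a deposited log2 of -0.77 ± 0.0689 for LAN5, -0.89 ± 0.0608 in IMR5 and -0.83 ± 0.124 for SK-N-FI by the authors' deposited tables. PCGF1, a subunit of a variant form of the complex, was the single gene of these lists called in SK-N-BE(2), lower with a deposited log2 of -0.26 ± 0.0714 (adjusted p = 0.0160) by the authors' deposited table. It also fell in LAN5 (deposited -0.56) and rose in IMR5 (deposited 0.97) and SK-N-FI (deposited 0.74) by the authors' deposited tables. Of the 4 genes of the deubiquitinase that opposes this complex, 2 rose and 2 fell in LAN5, 3 fell in IMR5, and none of 3 tested was called in SK-N-FI (DESeq2 Wald test).

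Genes known to be silenced through EZH2 in neuroblastoma, namely CASZ1, CLU, RUNX3 and NGFR, went in different directions between sensitive lines. The neurotrophin receptor gene NGFR rose by a deposited log2 of 1.43 ± 0.161 for LAN5 and 4.29 ± 0.199 in IMR5, and had -0.86 ± 0.123 for SK-N-FI, where it fell, by the authors' deposited tables. CLU, which encodes the chaperone clusterin, had deposited values of 1.53 ± 0.104, 0.87 ± 0.209 and -0.57 ± 0.102 in the same lines, all called, by the authors' deposited tables. CASZ1 was not called in any line, and RUNX3 was listed for SK-N-BE(2) only. None of the 4 was called in SK-N-BE(2), by the Wald test of the authors' deposited table, where NGFR had an unadjusted p of 0.0284. Whether these genes moved with EZH2 was not tested.

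**Figure D5:**
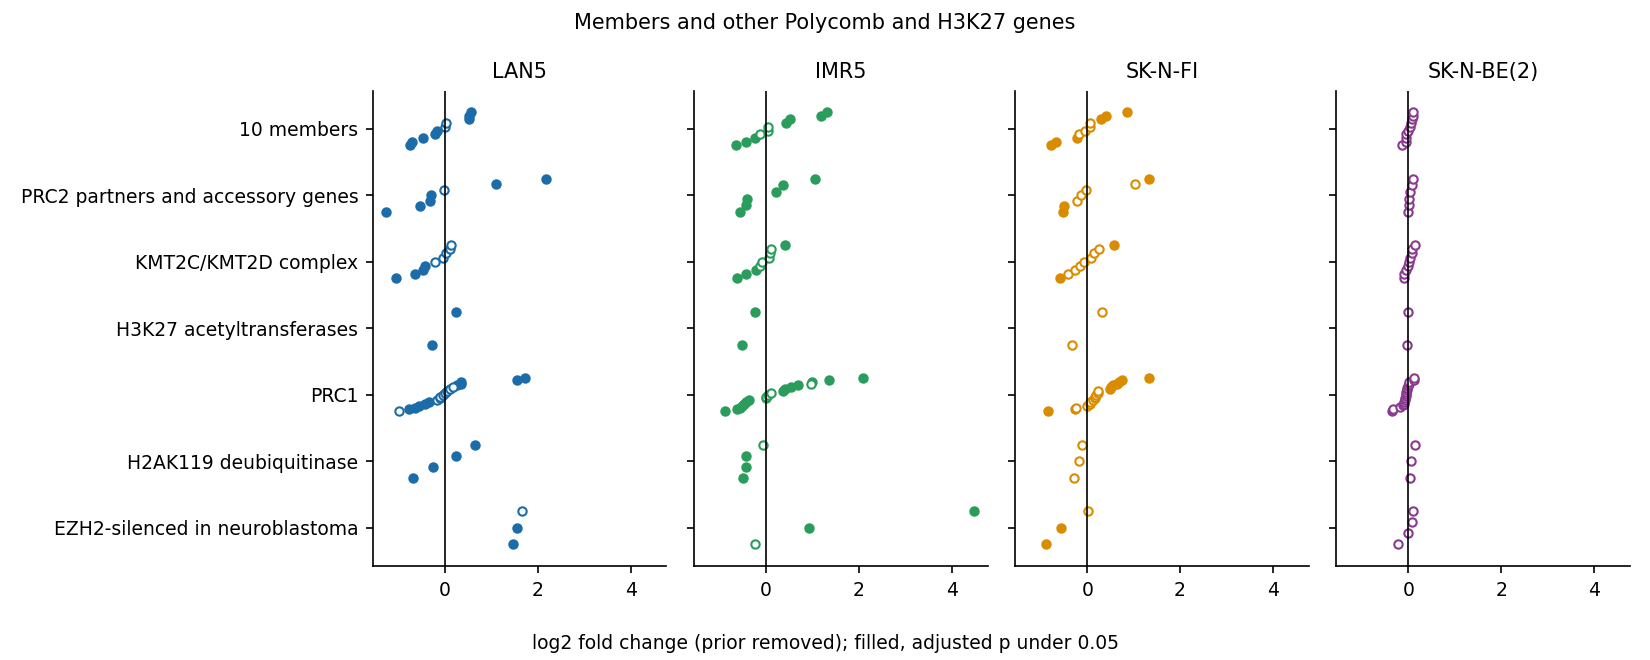
Prior-removed log2 fold change (horizontal axis, same scale in all panels) of the 10 members and of the tested genes of 6 further lists in each line; filled circles passed an adjusted p under 0.05 by the authors' deposited table. In the sensitive lines most lists hold genes on both sides of 0, and the EZH2-silenced genes lie above 0 in LAN5 and mostly in IMR5 but below or at 0 in SK-N-FI.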

How the data were processed

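Polyadenylated RNA was sequenced from 24 libraries in 8 groups of 3, per the labels' protocols. FastQC, STAR and DESeq2 with build hg38 are named, without versions, per the submitters' processing notes; annotation, counting tool, strand setting and design formula: not given in the sources used here. In the tables deposited by the authors, the signal column is the mean of normalized counts over a line's libraries. The authors also gave a log2 fold change with an error, the Wald statistic (a score), a p-value and its adjusted form, per the file headers. That the fold changes are shrunken was read from the values, in which the errors peak and then fall toward the lowest means. No header states it. Depth per library is unknown.

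The 10 members, the gene lists and the tests were chosen with earlier results of these data known. The shrinkage was removed by taking the prior's standard deviation as 2 times the largest standard error of a table and solving the equations of the shrunken estimate and its error for each gene; this leaves the Wald statistic as it was. The equations have a pair of solutions; that with the smaller error was used for genes above the expression where the error, as a running median over 501 genes, peaks (134 in SK-N-BE(2), 3.15 to 4.66 elsewhere), which holds for every member. In the SK-N-BE(2) table the score differed from fold change over error by more than 0.0001 for 19488 genes (median difference 0.000382). Untreated and treated levels follow from the mean and the prior-removed fold change with 3 libraries a side, and the implied error of an untreated level is its standard error over the square root of 2. Exon lengths and gene positions are from GENCODE release 29 (GRCh38), promoters from RefSeq. Differences between lines used a Wald test over 8982 genes whose mean reached 100 in every table. The test was also run on simulated data made with the same errors and the same solution. That simulation cannot judge the choice of solution. All members are named, and of each other list called genes among the 3 with the largest deposited fold changes in a direction in a line; CASZ1, RUNX3 and the marker and direction genes are named as list members. CDK1 and E2F1 fall outside this rule and were chosen after their values were seen. Further symbols were matched by Ensembl ID. Software was Python 3.11.15, numpy 2.4.6, pandas 2.3.3, scipy 1.17.1 and matplotlib 3.10.9. Alternatives were the deposited values, the other solution, centring, other sets of genes for adjustment, a threshold of 0.01, other scalings of levels and leaving out lines. No single-library value was used, so no replicate was left out. The values of 1 gene of the further lists are not reported here.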

Additional observations from a re-analysis of the deposited data

Results flagged for a closer look

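Differences of the GSK-J4 response between lines were tested for 10 members in 6 comparisons, and 35 of the 60 tests passed a Wald adjusted p under 0.05. They are given as differences of prior-removed log2 fold changes. The share of all genes called in these comparisons lay between 44.1% and 63.0%, and the comparisons share lines, so the tests are not independent of each other.

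Sensitive lines minus SK-N-BE(2) gave 0.50 for KDM6A, 0.91 for KDM6B, 0.48 for EZH1 and 0.35 for AEBP2. The same comparison gave -0.40 for EZH2, -0.23 for SUZ12, -0.49 for JARID2 and -0.60 for PHF19. Between the MYCN-amplified sensitive lines and SK-N-FI the difference was 0.60 for EZH1 and -0.53 for JARID2. LAN5 minus IMR5 gave -1.28 for EZH1, -0.63 for KDM6B, -0.48 for EZH2, -0.33 for PHF19 and -0.20 for MTF2.

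Against SK-N-BE(2), LAN5 differed by 0.56 in KDM6A, 0.60 in KDM6B and 0.41 in AEBP2. It differed by -0.57 in EZH2, -0.25 in SUZ12, -0.58 in JARID2, -0.70 in PHF19 and -0.25 in MTF2. IMR5 differed from SK-N-BE(2) by 0.47 in KDM6A, 1.23 in KDM6B, 1.32 in EZH1 and 0.42 in AEBP2. Its other differences were -0.17 in SUZ12, -0.75 in JARID2 and -0.37 in PHF19. SK-N-FI differed from SK-N-BE(2) by 0.46 in KDM6A and 0.91 in KDM6B, and by -0.52 in EZH2, -0.26 in SUZ12 and -0.73 in PHF19.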

How the results depend on the processing

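Of 160 alternative values for a member within a line, 156 kept their call and direction and 4 lost the call. The 160 include the prior-removed values, which carry the authors' adjusted p-values over. No call or direction could change there. Of 290 for differences between lines, 250 kept both, 32 lost the call, 4 gained one and 4 reversed. With the other solution for SK-N-BE(2), the EZH2 difference was 0.56 for sensitive minus resistant, 0.39 for LAN5 and 0.44 for SK-N-FI minus SK-N-BE(2), and AEBP2 had -0.024 for sensitive minus resistant. Members called against SK-N-BE(2) then numbered 1 for the sensitive lines together, 0 for LAN5, 3 for IMR5 and 1 for SK-N-FI, with larger errors by construction. Centring on the median fold change left 3 members lower in LAN5, and gave 4 called between the MYCN-amplified sensitive lines and SK-N-FI and 3 between LAN5 and IMR5. At an adjusted p under 0.01, 1 member was higher in SK-N-FI and 1 in all 3 sensitive lines, and 0 genes of the other chromatin lists were lower in SK-N-BE(2). In untreated cells the level of IMR5 was 1.27 times that of SK-N-BE(2) for KDM6A, 1.87 times that of SK-N-FI for KDM6B, 1.02 times that of SK-N-FI for EZH1 and 1.89 times that of LAN5 for EZH2. By the mean over treated and untreated libraries, EZH2 in IMR5 was 2.17 times that in LAN5. That ratio of means was 2.33 when scaled by the median ratio. Untreated SK-N-BE(2) had 1.34 times the SUZ12 level of LAN5 and 1.76 times the PHF19 level of IMR5. Apart from what the construction of a setting fixes, the cause was not tested. No paired analysis was possible because the tables hold no value of a single library, and for the same reason no replicate was left out. Depth per library is unknown and sets no stated limit.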
